A study of Rattus norvegicus with 12 samples.

Results

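Chemokine ligand and receptor genes were followed in 12 poly(A) RNA-Seq libraries of the rat line PAC1, which derives from smooth muscle cells (SMCs) of the pulmonary artery and can be kept in a more differentiated (PAC1-D) or a more proliferative (PAC1-P) state. The genes were taken by symbol: Ccl, Cxcl, Cx3cl, Ccr, Cxcr, Cx3cr or Ackr followed by a number and nothing else. This gave 54 of the 33294 genes of the count table, of which 33 encode ligands, 17 receptors and 4 atypical receptors. Ccr1l1, the 1 symbol with a further suffix, had no count in any library and was kept apart. The 4 groups held 3 libraries each. D1 was PAC1-D cells given control siRNA, and P was PAC1-P cells given the same control. RBPMS KD1 was PAC1-D cells given siRNA against RBPMS, and MBNL KD was PAC1-D cells given siRNAs against both MBNL1 and MBNL2. RBPMS and MBNL proteins bind RNA and control alternative splicing, and RBPMS is the more SMC-restricted of them. All cells received 90 pmol of siRNA, a repeat transfection after 24 h and a harvest 48 h after that by the sample labels, while the study's text describes a longer schedule. PAC1-D cells were split once per week and PAC1-P cells more often and at a higher dilution, and all 4 groups come from this single line.

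Chemokines are small secreted proteins that direct cell migration, and Cx3cl1 and Cxcl16 are made as membrane-anchored proteins that can be shed. They bind G protein-coupled receptors, most of which couple to inhibitory G proteins, while atypical receptors of the Ackr group bind chemokines without classical G protein signalling and mainly remove or localise them. In the vessel wall, smooth muscle cells are known sources of Cxcl12 and of the monocyte attractants Ccl2 and Ccl7, whose genes respond to NF-kB, and Cxcl9, Cxcl10 and Cxcl11 are classical interferon-response chemokines.

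Library totals ran from 80842635 to 90771289 counts. The lowest belonged to MBNL KD replicate 3, which also stood apart from its group: its counts differed from those of the other MBNL KD libraries by a chi-square of 12.8 per degree of freedom, compared with 3.68 to 7.7 for every other pair within a group. The siRNA targets fell, to 25% of the D1 mean for Rbpms in RBPMS KD1 and to 23.7% for Mbnl1 and 29.5% for Mbnl2 in MBNL KD. All 8 SMC markers were lower in P by the thresholds used below. In RBPMS KD1 4 of them were. In MBNL KD edgeR and DESeq2 called 0 in either direction, although all 8 passed edgeR's adjusted p, 6 lower and 2 higher. Of 12 leukocyte markers, Tyrobp was at 0 in every group and Itgam, encoding an integrin of myeloid cells, was at 0 in D1 and both knockdowns. The summed leukocyte list lay at 5204 to 5598 scaled counts in D1, 4433 to 4619 in P, 7539 to 7762 in RBPMS KD1 and 4699 to 4999 in MBNL KD, and Cd14 made up between 95.4% and 98.2% of it. Among these markers edgeR called Fcgr3a and Cd3e higher in P (11.5-fold and 3.49-fold) and Fcgr3a and Csf1r higher in MBNL KD (4.91-fold and 2.46-fold). Of 8 fibroblast markers, Mfap5 and Fap were called higher in P and Dpt and Dcn lower in MBNL KD. The list summed to 13388 to 14367 scaled counts in D1 and 17571 to 18341 in P. It summed to 11958 to 12546 in RBPMS KD1 and 8548 to 9101 in MBNL KD. Lum made up between 73.2% and 84.9% of it, and its mean was 11692 in D1 and 8982 in RBPMS KD1. By the adjusted p alone, 3 of 6 tested fibroblast markers were higher in RBPMS KD1 and 1 was lower, with a median log2 fold change of 0.43. Of 5 epithelial markers, Krt8 was called higher in P and Epcam was at 0 in D1 and both knockdowns. In the order D1, P, RBPMS KD1 and MBNL KD, the list summed to 3159 to 3316, 7127 to 7387, 3453 to 3680 and 4757 to 4829. Krt8 made up between 99.6% and 99.8% of it. Over all genes tested, 16.4% were called higher and 11.2% lower in P. The shares were 3.06% and 1.62% in RBPMS KD1 and 6.1% and 4.14% in MBNL KD. The part of the marker levels in the chemokine results was not tested. In bulk RNA, fewer cells of a type and less RNA per cell cannot be told apart.

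Most of the chemokine system was silent or close to it in these cells. Of the 54 genes, 41 had at least 1 count in some library and 13 had none, among them the receptors Ccr1, Ccr2, Ccr3, Ccr6 and Cxcr1, the atypical receptor Ackr1 and the ligands Ccl21, Ccl22, Ccl24, Ccl26, Cxcl6 and Cxcl14. Both mates of a read pair appear to have been counted, so a count of 0 allows up to 3 fragments, or 6 counts, which is 0.066 to 0.074 CPM at these depths and covers counting error only. A further 21 genes had counts but passed the filter on low counts in no comparison, and the highest of these was 34 counts of Ccl20, a ligand of Ccr6, in P replicate 2. They include Cxcr4, the main receptor of Cxcl12, with at most 10 counts in a library, and Cx3cr1, the receptor of Cx3cl1, with at most 2. The remaining 20 genes were tested in at least 1 comparison and comprise 15 ligands, the atypical receptors Ackr3 and Ackr4, and the receptors Ccr10, Cxcr3 and Cxcr5. Neither Ccr2, the receptor of Ccl2, nor Ccr3, a receptor of Ccl11, had a count in any library, although both ligands did.

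A gene was called where edgeR's quasi-likelihood test gave a p under 0.05 after Benjamini-Hochberg adjustment over all genes tested and a log2 fold change above 1 or below -1. Levels are given as counts in replicates 1, 2 and 3, and as scaled counts, which are counts divided by the library's effective size (TMM) and set to a common library size (mean ± SD, n = 3). They were compared between groups and not between genes, since no transcript lengths were used. A gene that passed the filter on low counts through 1 group only could in effect only be called higher in that group. Among these were Ccl3 in D1, Cxcl11 in P and Ccl12 in MBNL KD.

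Promoters of 6 chemokine genes from the comparisons below are shown first, as 250 bases before the annotated start in the RefSeq annotation of GRCr8, 5′ to 3′ on the gene's strand. Capitals mark a kappaB consensus match, the interferon response core GAAANNGAA, the AP-1 site TGANTCA or the TATA box TATAAA, each searched on both strands. Ccl7 and Ccl12, which lie on either side of Ccl11 in the order of genes, were both called higher in MBNL KD, and Cxcl10 was the gene called lower there. Cxcl13 was higher in both knockdowns and lower in P. Cxcl12 had the smallest adjusted p and Cx3cl1 the largest rise in P among these genes.

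Ccl7, chr10:67513845-67514094, plus strand: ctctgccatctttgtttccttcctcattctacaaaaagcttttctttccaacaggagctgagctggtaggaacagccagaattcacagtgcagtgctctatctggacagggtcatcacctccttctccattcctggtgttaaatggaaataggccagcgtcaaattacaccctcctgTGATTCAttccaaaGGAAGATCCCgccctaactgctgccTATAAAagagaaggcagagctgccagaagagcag
Ccl12, chr10:67567626-67567875, plus strand: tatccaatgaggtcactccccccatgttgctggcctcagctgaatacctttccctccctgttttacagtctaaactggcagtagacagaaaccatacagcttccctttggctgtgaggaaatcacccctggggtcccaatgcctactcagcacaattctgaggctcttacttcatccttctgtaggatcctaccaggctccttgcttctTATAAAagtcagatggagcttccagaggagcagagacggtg
Cxcl10, chr14:15988816-15989065, plus strand: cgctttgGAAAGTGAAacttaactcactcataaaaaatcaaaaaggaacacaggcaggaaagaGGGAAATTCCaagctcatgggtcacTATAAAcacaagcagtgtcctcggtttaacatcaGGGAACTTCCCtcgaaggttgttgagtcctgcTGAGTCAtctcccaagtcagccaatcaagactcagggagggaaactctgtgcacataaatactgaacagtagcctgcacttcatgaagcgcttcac
Cxcl13, chr14:13917921-13918170, minus strand: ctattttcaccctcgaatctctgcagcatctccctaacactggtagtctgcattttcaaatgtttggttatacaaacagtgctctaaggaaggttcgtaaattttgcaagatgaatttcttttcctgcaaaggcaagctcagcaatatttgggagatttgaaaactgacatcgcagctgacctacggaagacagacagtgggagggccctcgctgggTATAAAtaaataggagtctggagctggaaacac
Cxcl12, chr4:152060531-152060780, plus strand: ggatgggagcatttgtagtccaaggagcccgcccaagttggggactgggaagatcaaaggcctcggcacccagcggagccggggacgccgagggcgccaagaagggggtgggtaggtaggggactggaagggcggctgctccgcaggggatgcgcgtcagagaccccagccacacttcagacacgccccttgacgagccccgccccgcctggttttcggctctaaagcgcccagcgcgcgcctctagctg
Cx3cl1, chr19:10242821-10243070, minus strand: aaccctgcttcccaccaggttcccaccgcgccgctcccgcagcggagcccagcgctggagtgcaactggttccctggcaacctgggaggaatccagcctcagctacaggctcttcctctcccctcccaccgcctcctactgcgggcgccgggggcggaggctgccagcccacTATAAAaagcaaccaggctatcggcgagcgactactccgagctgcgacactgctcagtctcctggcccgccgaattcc

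The Ccl7 window held a kappaB match, an AP-1 site and a TATA box, whereas that of Ccl12 held only the TATA box of the 4 motifs. Cxcl10 held kappaB matches at 2 places, 1 of them on both strands, together with the interferon response core, an AP-1 site and a TATA box. The windows of Cxcl13 and Cx3cl1 held a TATA box, and that of Cxcl12 held none of the 4. Among all 33469 promoters of the table, the kappaB consensus was found in 6.33%, the interferon response core in 8.12%, the AP-1 site in 6.34% and the TATA box in 12.9%. Among the 40 chemokine and receptor genes with a promoter in the table, they were found in 9, 3, 6 and 11. AP-1 sites read alike on both strands and kappaB matches can overlap, so a promoter was counted once per motif. A match describes letters in this window and not a bound site.

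In P cells, 6 of the 18 chemokine and receptor genes tested were higher than in D1 and 6 were lower. Over all 16814 genes tested, 16.4% were called higher and 11.2% lower. Cx3cl1, Ackr4, Ackr3, Cxcl11, Cxcl1 and Cxcr5 rose, and Ccl3, Cxcl13, Cxcl12, Ccl2, Ccl7 and Ccl27 fell. With the adjusted p alone, 15 of 18 passed, beside 77.9% of all genes.

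**Figure D1:**
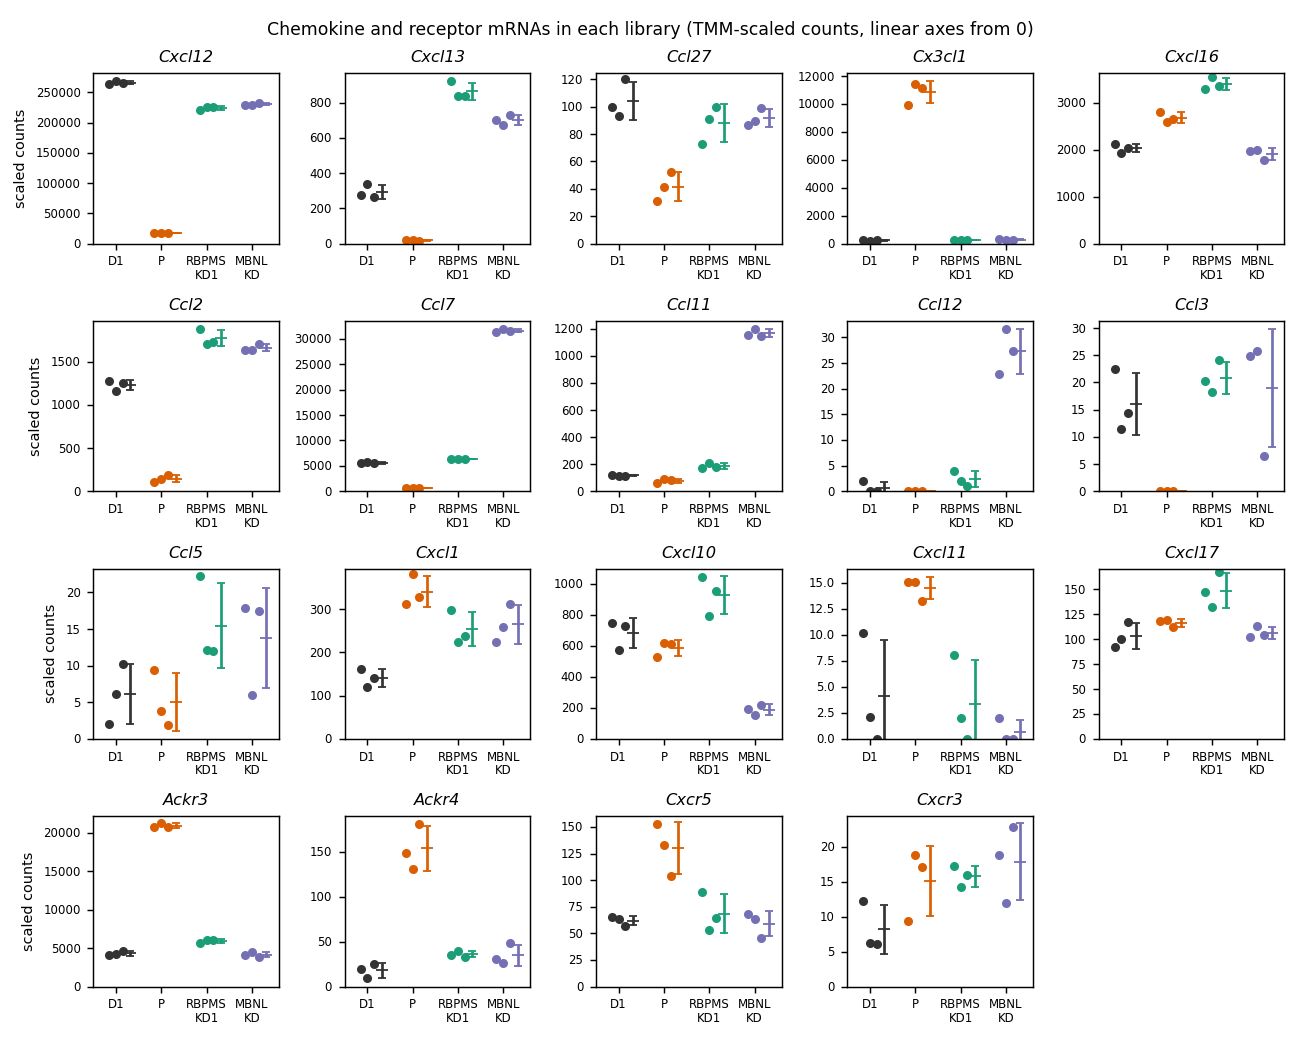
TMM-scaled counts of 19 chemokine and receptor mRNAs in each library of the 4 groups. Each panel has its own linear axis from 0; points are libraries in replicate order, and the bar beside them is the mean ± SD (n = 3), ending at 0 where it would pass below. The 3 P libraries of Cx3cl1 lie above and those of Cxcl12, Cxcl13, Ccl2 and Ccl7 below all other libraries, and the 3 MBNL KD libraries of Ccl7, Ccl11 and Ccl12 lie above all others.

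Cxcl12, the homeostatic chemokine also known as stromal cell-derived factor, had 257835, 260674 and 260925 counts in D1 and 18453, 18516 and 18312 in P. All P libraries lay far below all D1 libraries, and replicates within a group differed by little. Scaled counts fell from 266255 ± 2830 to 17420 ± 87.9, 6.54% of the D1 mean (log2 fold change -3.93, SE 0.025, adjusted p = 1.3e-43, edgeR). Cxcl13, the B cell attractant that binds Cxcr5, had 270, 328 and 258 counts in D1 and 20, 24 and 14 in P. It was at 6.25% of D1 and its groups did not overlap (log2 fold change -3.99, SE 0.21, adjusted p = 3.2e-18, edgeR).

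The monocyte attractants Ccl2 and Ccl7, ligands of Ccr2 and, for Ccl7, of further receptors, fell to a similar extent. Ccl2 had 1251, 1129 and 1231 counts in D1 and 108, 152 and 194 in P (log2 fold change -3.11, SE 0.11, adjusted p = 2.1e-23, edgeR). Ccl7 had 5425, 5550 and 5360 counts in D1 and 735, 736 and 683 in P (log2 fold change -3.04, SE 0.044, adjusted p = 3.8e-34, edgeR). For both, every P library was below every D1 library, at 11.6% and 12.2% of the D1 means. Ccl11, an eosinophil attractant, was lower in P without passing the fold threshold, with 120, 112 and 114 counts in D1 and 64, 92 and 90 in P (log2 fold change -0.61, SE 0.19, adjusted p = 0.0048, edgeR). Under quantile normalization its log2 fold change was -1.08, past the threshold.

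Ccl27, known as a skin chemokine that binds Ccr10, had 98, 90 and 118 counts in D1 and 33, 44 and 55 in P, groups that did not overlap (log2 fold change -1.33, SE 0.23, adjusted p = 5.9e-06, edgeR). The macrophage ligand Ccl3 had few counts, 22, 11 and 14 in D1 and 0 in all P libraries. Against a limit of 3 fragments (6 counts) over the 3 P libraries it was at least 7.57-fold lower in P (adjusted p = 7.9e-07, edgeR).

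Cx3cl1, whose membrane-anchored form serves in adhesion of leukocytes, had the largest rise. It had 240, 207 and 218 counts in D1 and 10543, 12050 and 11789 in P. The P libraries lay far above all D1 libraries, with 227 ± 16.3 scaled counts in D1 and 10836 ± 795 in P (log2 fold change 5.57, SE 0.058, adjusted p = 3.5e-38, edgeR). Cx3cl1 is also well known in endothelial cells. All 4 tested markers of an endothelial list of 8 (Cdh5, Tek, Erg and Vwf) were called higher in P, beside 16.4% of all genes. Cdh5, with 0 counts in D1, passed the filter through P only and could only be called higher. Of the untested members, Pecam1 had 12 summed counts in D1 and 16 in P, Tie1 2 and 12, and Kdr 0 and 6. The list summed to between 157 and 164 scaled counts in D1 and between 1312 and 1368 in P. Emcn was at 0 in every group and Cdh5 and Kdr at 0 in all but P. In the knockdowns it summed to 249 to 261 (RBPMS KD1) and 257 to 307 (MBNL KD). Tek and Vwf, 2 of 3 tested, were called higher in RBPMS KD1 (log2 fold changes 1.32 and 1.22). In MBNL KD 0 of 3 were called by edgeR or DESeq2, although 1 was higher by the adjusted p. The part of this list in the Cx3cl1 result was not tested.

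Of the 4 atypical receptors, Ackr3 and Ackr4 passed the filter on low counts and both rose in P, while Ackr2 had at most 2 counts in a library and Ackr1 none. Ackr3, which binds and removes Cxcl12, had 3966, 4080 and 4562 counts in D1 and 22102, 22523 and 21869 in P (log2 fold change 2.28, SE 0.034, adjusted p = 1.1e-33, edgeR). Ackr4, a scavenger of the ligands of Ccr7 and Ccr9, had 19, 9 and 25 counts in D1 and 158, 138 and 191 in P (log2 fold change 3.07, SE 0.26, adjusted p = 1.6e-12, edgeR). For each of them the P libraries were all above the D1 libraries. Cxcl12 and its scavenger Ackr3 moved in opposite directions in P, to 6.54% and 487% of the D1 means.

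Cxcl1, a neutrophil attractant that binds Cxcr2, had 158, 116 and 138 counts in D1 and 330, 403 and 347 in P, with no overlap (log2 fold change 1.27, SE 0.13, adjusted p = 8.5e-11, edgeR). Cxcr5, the receptor of Cxcl13, had 64, 61 and 56 counts in D1 and 162, 141 and 110 in P (log2 fold change 1.07, SE 0.20, adjusted p = 1.1e-05, edgeR). Cxcl11, a ligand of Cxcr3 and Ackr3, had 10, 2 and 0 counts in D1 and 16, 16 and 14 in P (log2 fold change 1.79, SE 0.61, adjusted p = 0.0091, edgeR). The calls of these 3 genes depended on the processing. Under quantile normalization the log2 fold changes were 0.84, 0.59 and 0.58 and none passed both thresholds. Cxcr5 fell short of the fold threshold without P replicate 1 (0.94), and Cxcl11 lost its call without D1 replicate 2 or 3 (1.48 and 1.21).

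Cxcl10, Cxcl16, Cxcl17 and Cxcr3 were not called in P. Cxcl10, which attracts cells bearing Cxcr3, had 731, 553 and 714 counts in D1 and 562, 650 and 647 in P, which overlap (log2 fold change -0.22, SE 0.086, adjusted p = 0.021, edgeR). Cxcl16, a transmembrane ligand of Cxcr6, had 2074, 1876 and 2006 counts in D1 and 2986, 2735 and 2791 in P, all higher than in D1 (log2 fold change 0.40, SE 0.044, adjusted p = 8.8e-10, edgeR). Cxcl17, a mucosal chemokine, differed by 0.17 (SE 0.17) and Cxcr3 by 0.87 (SE 0.48), with edgeR's adjusted p at 0.37 and 0.097. The signs of the last 2 turned under quantile normalization.

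**Figure D2:**
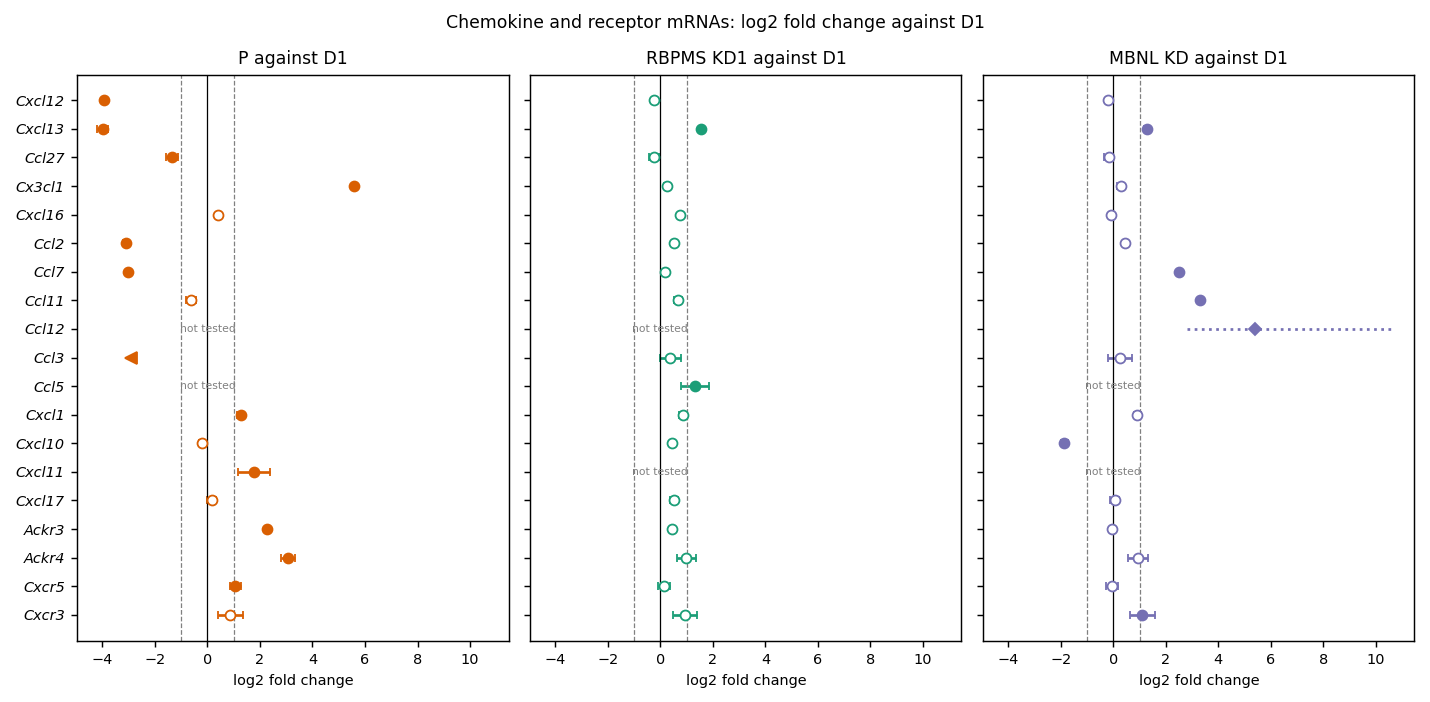
Log2 fold change against D1 of 19 chemokine and receptor mRNAs in P, RBPMS KD1 and MBNL KD, on a shared axis. Circles are edgeR estimates with bars of 1 SE, filled where the gene was called; dashed lines mark the fold threshold of 1 on either side of 0. The triangle for Ccl3 in P marks the bound of at least 7.57-fold, and the diamond for Ccl12 in MBNL KD the ratio of 41.6 with its 95% counting interval as a dotted line. Filled circles on both sides of 0 are seen in P, and the largest values in MBNL KD belong to Ccl7, Ccl11 and Ccl12.

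In RBPMS KD1, 2 of 18 tested genes, Cxcl13 and Ccl5, were called higher than in D1 and 0 were called lower by edgeR. Over all 15904 genes tested, 3.06% were called higher and 1.62% lower. By the adjusted p alone 11 of 18 were higher, Cxcl13 and Ccl5 among them, and 1 was lower, beside 59.1% of all genes in either direction. At an unadjusted p under 0.05, 1 was lower. DESeq2 on the counts called 1 of the 18 higher and 0 lower.

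Cxcl13 had 911, 825 and 835 counts in RBPMS KD1, all above the 258 to 328 of D1. Scaled counts were 865 ± 48.8, compared with 293 ± 40.3 in D1 (log2 fold change 1.56, SE 0.087, adjusted p = 3.5e-15, edgeR). Ccl5, a T cell and monocyte attractant, was near the detection limit, with 2, 6 and 10 counts in D1 and 22, 12 and 12 in RBPMS KD1 (log2 fold change 1.32, SE 0.54, adjusted p = 0.037, edgeR). Its call was lost with the replicate number as a block (adjusted p = 0.061, edgeR), with DESeq2 (adjusted p = 0.078), and without D1 replicate 1, D1 replicate 2 or RBPMS KD1 replicate 1 (log2 fold changes 0.90, 1.32 and 0.96). In MBNL KD it had 18, 6 and 16 counts, 224% of D1 and below the filter, and it was called there without D1 replicate 3 or MBNL KD replicate 2. Between the knockdowns it did not pass the test (log2 difference 0.18, SE 0.47, adjusted p = 0.75, edgeR).

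Below the fold threshold, the transmembrane ligand Cxcl16 rose to 3263, 3495 and 3352 counts, all above D1 (log2 fold change 0.74, SE 0.043, adjusted p = 8.2e-15, edgeR). Cxcl1 rose to 295, 221 and 238 counts (log2 fold change 0.85, SE 0.14, adjusted p = 8.4e-06, edgeR). Ccl2 reached 1863, 1687 and 1723 counts (log2 fold change 0.53, SE 0.054, adjusted p = 1.7e-09, edgeR). The ligands Ccl11, Cxcl17, Cxcl10 and Ccl7 were also higher by the adjusted p, with log2 fold changes of 0.67, 0.53, 0.44 and 0.18. Ackr3 was higher, with 5587, 6029 and 6015 counts (log2 fold change 0.46, SE 0.041, adjusted p = 7.4e-11, edgeR).

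Ackr4 lay at the fold threshold, with 35, 39 and 33 counts in RBPMS KD1, all above D1 (log2 fold change 0.99, SE 0.36, adjusted p = 0.021, edgeR). With the replicate block the log2 fold change was 1.02 and the gene was called, as it was without D1 replicate 1 (1.04), D1 replicate 3 (1.32), RBPMS KD1 replicate 1 (1.00) or RBPMS KD1 replicate 3 (1.05). Cxcl12 was the 1 gene that was lower by the adjusted p, with 217763, 222739 and 225790 counts, or 84.1% of D1 (log2 fold change -0.25, SE 0.024, adjusted p = 5.0e-10, edgeR). Values for Cx3cl1 (0.25, SE 0.11), Ccl27 (-0.24, SE 0.19), Cxcr5 (0.15, SE 0.23), Cxcr3 (0.94, SE 0.47) and Ccl3 (0.38, SE 0.40) did not pass the test.

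In MBNL KD, chemokine genes that lie side by side rose several-fold. Of 18 tested genes, Ccl12, Ccl11, Ccl7, Cxcl13 and Cxcr3 were called higher and Cxcl10 lower. Over all 16053 genes tested, 6.1% were called higher and 4.14% lower. By the adjusted p alone 9 were higher and 2 lower, beside 67.5% of all genes in either direction.

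Ccl7 had 31552, 32357 and 28948 counts in MBNL KD, all more than the 5360 to 5550 of D1. Scaled counts were 31635 ± 305 compared with 5580 ± 133, a 5.70-fold difference (log2 fold change 2.51, SE 0.027, adjusted p = 5.1e-33, edgeR). Ccl11 had 1162, 1217 and 1053 counts, compared with 112 to 120 in D1, and was 9.93-fold higher (log2 fold change 3.31, SE 0.085, adjusted p = 3.5e-24, edgeR). Ccl12, a rodent ligand of Ccr2, had 23, 32 and 25 counts in MBNL KD and 2, 0 and 0 in D1, groups that did not overlap. The ratio was 41.6 with a 95% exact counting interval of 7.05 to 1684, in which 2 counts are taken as 1 fragment (adjusted p = 3.9e-07, edgeR). Ccl2 changed least of the 4, with 1643, 1658 and 1564 counts, all above D1 (log2 fold change 0.43, SE 0.052, adjusted p = 1.8e-08, edgeR).

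Ccl2, Ccl7, Ccl11, Ccl12 and Ccl1 follow each other in the order of genes in GRCr8. Ccl1, a ligand of Ccr8, had 1 count in a single D1 library and 0 elsewhere. Of the genes beyond it, Tmem132e had at most 2 counts in a library. Cct6b, with 18 to 51 counts, was not called in MBNL KD (log2 fold change 0.34). On the Ccl2 side, LOC134480834 and Rpl35al3 were not in the count table, so that side could not be looked at. Ccl7, Ccl11 and Ccl12, all called higher in MBNL KD, were thus neighbours, with Ccl2 beside them at 135% of D1. In P, Ccl2 and Ccl7 were called lower and Ccl11 was not. These chemokines have similar sequences, and whether reads were shared between them was not tested.

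Cxcl10 was the 1 gene called lower in MBNL KD, with 192, 154 and 203 counts, all below the 553 to 731 of D1. Scaled counts were 188 ± 34.8 compared with 682 ± 96.8 (log2 fold change -1.86, SE 0.12, adjusted p = 1.0e-14, edgeR). Its neighbours in the interferon-response group, Cxcl11 and Cxcl9, were at the detection limit, with 2, 0 and 0 counts of Cxcl11 and 0 of Cxcl9 in MBNL KD. In D1, Cxcl11 had 10, 2 and 0 counts and Cxcl9 had 0, 3 and 2. Both were below the filter on low counts in this comparison. The ratio of D1 to MBNL KD was 5.77 for Cxcl11, with a counting interval of 0.70 to 265 that includes 1, and without the filter neither gene passed the test (adjusted p = 0.19 for each, edgeR). Beside Cxcl11, Art3 had at most 6 counts in a library and was not tested. Nup54, beyond Art3, and Sdad1, beside Cxcl9, were not called in MBNL KD, with log2 fold changes of -0.05 and -0.19.

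Cxcl13 rose to 707, 680 and 669 counts in MBNL KD, without overlap with D1 (log2 fold change 1.27, SE 0.091, adjusted p = 2.7e-13, edgeR). Cxcl1 rose to 224, 262 and 286 counts (log2 fold change 0.91, SE 0.14, adjusted p = 1.8e-06, edgeR), and passed the fold threshold without D1 replicate 1 or MBNL KD replicate 1 (1.02 each). Cxcr3, the receptor of Cxcl10, had 12, 6 and 6 counts in D1 and 19, 12 and 21 in MBNL KD, which touch at 12 (log2 fold change 1.11, SE 0.49, adjusted p = 0.046, edgeR). The Cxcr3 call was lost with the replicate block (adjusted p = 0.056, edgeR) and with DESeq2 (adjusted p = 0.083). It was lost without D1 replicate 2 or 3 or MBNL KD replicate 1 or 3 (log2 fold changes 0.94, 0.94, 1.07 and 0.90). Quantile normalization, no filter, limma on the normalised values and halved counts lost it too.

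Cxcl12 was slightly lower, with 230488, 232431 and 212903 counts, or 86.5% of D1 (log2 fold change -0.20, SE 0.018, adjusted p = 4.4e-11, edgeR). Ackr4 had 31, 26 and 44 counts, all above D1 (log2 fold change 0.94, SE 0.38, adjusted p = 0.032, edgeR). It was called without D1 replicate 3 (1.27), MBNL KD replicate 1 (1.02) or MBNL KD replicate 2 (1.12). Cx3cl1 was higher by the adjusted p, with 298, 242 and 266 counts (log2 fold change 0.28, SE 0.12, adjusted p = 0.034, edgeR). Values for Ackr3 (-0.04, SE 0.045), Cxcl16 (-0.08, SE 0.050), Cxcl17 (0.05, SE 0.17), Ccl27 (-0.18, SE 0.18), Cxcr5 (-0.05, SE 0.23) and Ccl3 (0.27, SE 0.46) did not pass the test.

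Without MBNL KD replicate 3, the library that stood apart, the log2 fold changes were 2.51 for Ccl7, 3.32 for Ccl11, 1.24 for Cxcl13 and -1.99 for Cxcl10, and 5 genes were called in place of 6, with Cxcr3 lost.

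**Figure D3:**
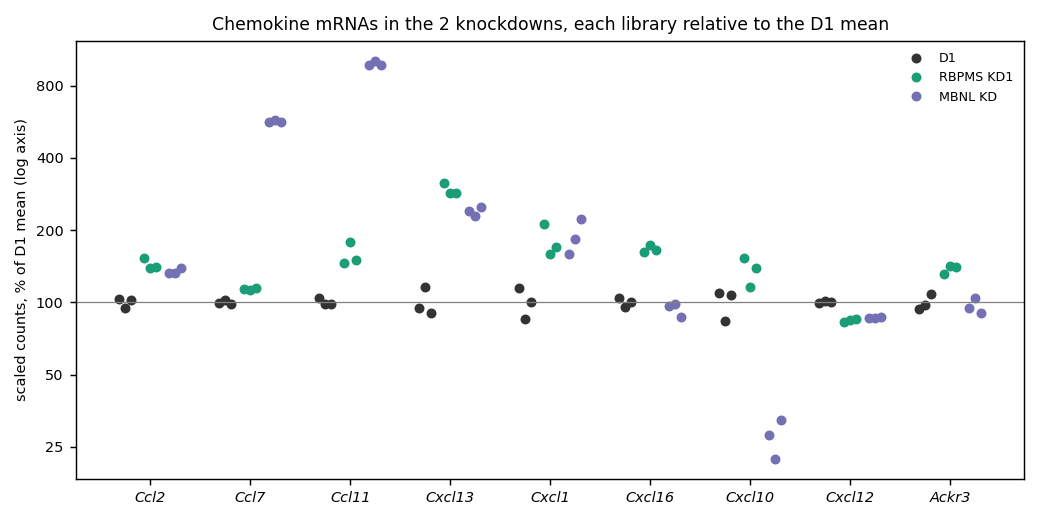
Scaled counts of 9 chemokine and scavenger receptor mRNAs in each library of D1, RBPMS KD1 and MBNL KD, as a percentage of the D1 mean on a log axis; each point is 1 library. MBNL KD libraries stand near 567% for Ccl7 and 989% for Ccl11 and near 27.6% for Cxcl10, where RBPMS KD1 libraries stand near 113%, 159% and 136%.

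Both knockdowns were read against the same D1 libraries, so the difference between them was tested directly, library against library. Of 19 tested genes, Cxcl10 was called higher in RBPMS KD1 than in MBNL KD and Ccl12, Ccl11 and Ccl7 lower. Over all 16111 genes tested, 6.03% were called higher and 5.88% lower, and 69.5% passed the adjusted p, as did 8 of the 19. The log2 difference, RBPMS KD1 over MBNL KD, was -2.32 for Ccl7 (SE 0.027, adjusted p = 2.6e-32), -2.64 for Ccl11 (SE 0.083, adjusted p = 3.1e-22) and -3.46 for Ccl12 (SE 0.56, adjusted p = 2.3e-06), all from edgeR. For Cxcl10 it was 2.31 (SE 0.11, adjusted p = 6.9e-18, edgeR), and in none of these 4 genes did the libraries of the knockdowns overlap.

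Smaller differences in favour of RBPMS KD1 passed the adjusted p for Cxcl16 (0.83, SE 0.045), Ackr3 (0.51, SE 0.040), Cxcl17 (0.48, SE 0.16) and Cxcl13 (0.30, SE 0.069), with edgeR's adjusted p at 2.6e-16, 1.2e-12, 0.0079 and 2.7e-04. For Ccl2 (0.10, SE 0.051) and Cxcl1 (-0.06, SE 0.13), both higher than D1 in either knockdown, no difference between knockdowns was detected (adjusted p = 0.096 and 0.70, edgeR). The same held for Cxcl12 (-0.04, SE 0.020, adjusted p = 0.074, edgeR).

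Ccr10, the receptor of Ccl27 and the last of the 20 tested genes, had 29 to 51 counts in D1, 45 to 52 in P, 43 to 78 in RBPMS KD1 and 49 to 53 in MBNL KD and passed the test in no comparison. Of the 21 genes below the filter, Ccl20 had 0 counts in D1 and 2, 34 and 6 in P, at least 7.25-fold higher against a limit of 6 counts over the D1 libraries, with most of it in P replicate 2. Cxcl2, a neutrophil attractant related to Cxcl1, had 0 counts in D1 and 4, 9 and 6 in P, at least 3.28-fold higher on the same footing. Ccl19, a ligand of Ccr7, had 9, 4 and 2 counts in D1 and 0 in P, at least 2.42-fold lower. Cxcr2, the receptor of Cxcl1 and Cxcl2, had 2, 0 and 0 counts in D1 and 3, 8 and 9 in MBNL KD, a ratio of 10.4 with a counting interval of 1.48 to 451. Each of these 4 was called when no filter was applied, as were Cxcl9 and Ccr9 between the knockdowns, where Cxcl9 had 4, 4 and 6 counts in RBPMS KD1 and 0 in MBNL KD and Ccr9 had 0 and then 2, 8 and 0.

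Lists of genes that act beside chemokines were counted in the same fits, as a description. Over all genes in these fits, 16.4% were called higher and 11.2% lower in P. The shares were 3.06% and 1.62% in RBPMS KD1 and 6.1% and 4.14% in MBNL KD. Of 17 tested genes of an interferon response list, 11 were called higher and 1 lower in P, with a median log2 fold change of 1.17 beside 0.02 over all genes. Mx1, an antiviral GTPase, was at 162 ± 30.6 scaled counts in D1 and 4071 ± 127 in P (log2 fold change 4.65), and Gbp5, a guanylate-binding protein, at 67.3 ± 6.33 and 774 ± 29.5 (log2 fold change 3.52). In RBPMS KD1, Gbp4, Gbp5 and Irf7 were called higher and 0 of 17 lower by edgeR or DESeq2. By the adjusted p alone 13 were higher and 1 lower, with a median of 0.58 beside 0.00. In MBNL KD, Gbp4 and Ifit2 were called higher and Mx1 lower, with a median of 0.00 beside 0.01. Replicate 1 of the knockdowns held the highest counts of several of these genes, with 2068, 565 and 1019 counts of Mx2, another antiviral GTPase, and 1401, 817 and 898 of the interferon-induced protease Usp18 in MBNL KD, and 2387, 1172 and 1399 of Mx2 in RBPMS KD1. Without that library Ifit2 was not called in MBNL KD and the median was -0.23, while in RBPMS KD1 the same 3 genes were called, with a median of 0.47. Mx1 was also not called in MBNL KD without D1 replicate 1, D1 replicate 2, MBNL KD replicate 2 or MBNL KD replicate 3, nor Ifit2 without D1 replicate 2. Irf1, a transcription factor of the interferon response, had 2704 ± 101 scaled counts in D1, 9797 ± 81.3 in P, 3620 ± 138 in RBPMS KD1 and 1378 ± 41.9 in MBNL KD. In MBNL KD its log2 fold change of -0.96 (adjusted p = 1.7e-17, edgeR) did not pass the fold threshold.

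Over all genes tested in P, 16.4% were called higher and 11.2% lower, with a median of 0.02. Of the NF-kB and inflammatory cytokine list, 7 of 29 tested genes were called higher and 2 lower there, with a median of 0.34. Those lower were Ptgs2, an inducible prostaglandin synthase, and the cytokine Il6, with log2 fold changes of -2.82 and -1.29. Tlr2, a receptor of bacterial lipoproteins, had 2 counts in all of D1 and 558 ± 60 scaled counts in P. It passed the filter through P only and could only be called higher. In RBPMS KD1, 3 of 28 were called higher (Il1rn, Tnfrsf1b and Il1r1) and 0 lower by edgeR or DESeq2. By the adjusted p alone 20 were higher and 3 lower, with a median of 0.34 beside 0.00. In MBNL KD, Il33 and Il6 were higher, with log2 fold changes of 1.47 and 1.38, and Bcl3, Csf1 and Nfkb1 were lower, at -1.70, -1.33 and -1.05, with a median of 0.04 beside 0.01.

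**Figure D4:**
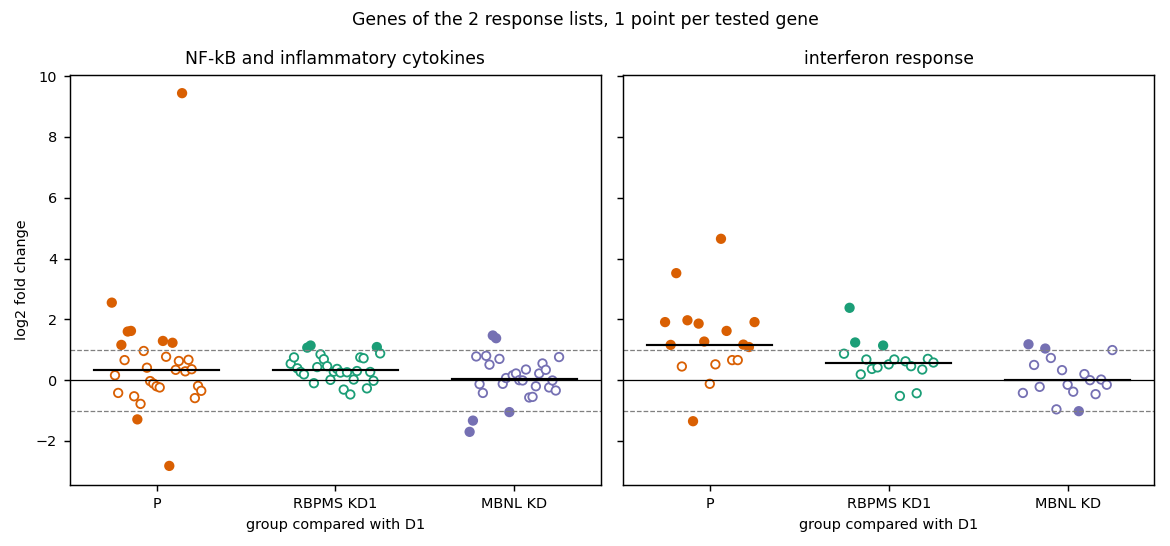
Log2 fold change against D1 of each tested gene of the NF-kB and inflammatory cytokine list (left, 28 or 29 genes) and of the interferon response list (right, 17 genes) in P, RBPMS KD1 and MBNL KD. Points are genes, filled where called; black bars are medians, and dashed lines mark the fold threshold of 1. The median of the interferon list is 1.17 in P, 0.58 in RBPMS KD1 and 0.00 in MBNL KD; the highest point on the left is Tlr2, a fitted value from 2 counts in D1.

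Downstream of the receptors, 5 of 19 tested signalling genes were called higher in P (Rac2, Elmo1, Pik3r5, Ptk2b and Arrb2) and 2 lower (Dock2 and Grk5). Over all genes the shares were 16.4% and 11.2%, and the median of the list was 0.13 beside 0.02. Rac2 and Pik3r5, with 2 and 10 summed counts in D1, passed the filter through P only and could only be called higher. Elmo1, a partner of Dock proteins in Rac activation, rose from 71.0 ± 16.6 to 364 ± 38.2 scaled counts, Ptk2b, a calcium-responsive kinase, rose from 2232 ± 65.2 to 8016 ± 96.8 scaled counts, and Grk5, a kinase that desensitises receptors, fell from 7114 ± 114 to 2897 ± 33.6. In RBPMS KD1, Elmo1 was called higher and 0 of 17 lower by edgeR or DESeq2. By the adjusted p alone 3 were higher and 6 lower, with a median of -0.04 beside 0.00. In MBNL KD, 0 of 17 were called higher by edgeR or DESeq2. By the adjusted p alone 5 were higher and 7 lower, with a median of -0.05 beside 0.01. Gnai2, 1 of 3 inhibitory G protein alpha subunits on the list, and the GTPase Rac1 were called lower (log2 fold changes -1.10 and -1.08). The other inhibitory subunits were not called, with log2 fold changes of 0.34 for Gnai1 (adjusted p = 4.6e-08, edgeR) and 0.03 for Gnai3 (adjusted p = 0.36, edgeR).

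Of 14 relatives of chemokines that the symbols did not take in, 8 were tested in P and in RBPMS KD1, with 0 called in either direction by edgeR or DESeq2. By the adjusted p alone, P had 2 of them higher and 4 lower and RBPMS KD1 had 4 higher and 3 lower. The medians were -0.10 and -0.07. In MBNL KD, 10 were tested, with a median of 0.05. Cmtm6, a membrane protein of the chemokine-like factor family, fell from 14101 ± 316 to 2474 ± 79.1 scaled counts (log2 fold change -2.50, SE 0.029, adjusted p = 4.1e-32, edgeR). Dpp4, a peptidase that trims Cxcl12 and other chemokines, and Cmtm8 were called higher from few counts. They had 3.4 ± 3.12 and 6.83 ± 1.57 scaled counts in D1 and 15.7 ± 1.77 and 24.3 ± 2.59 in MBNL KD. Both passed the filter against D1 through MBNL KD only, so they could only be called higher there.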

How the data were processed

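RNA was poly(A)-selected with a directional NEBNext kit and sequenced in pairs. The deposited counts were made by the authors, who subsampled reads to a common number per sample, aligned them to mRatBN7.2 with STAR 2.7.11b and assigned them to genes with featureCounts on the RefSeq annotation, without normalization. The strand setting is not given in the sources used here. Library totals exceed the number of reads to which the authors subsampled each sample, and even counts from 2 to 20 were 2.06 to 2.36 times as frequent as odd counts from 1 to 19, as when each mate is counted. Limits and counting intervals therefore take 2 counts as 1 fragment. The deposited normalised signal values, which the authors made by noise correction and quantile normalization, have a minimum of 35 and were used in 1 alternative only. They cover 26 of the 54 genes.

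Libraries were grouped by their labels. Counts were tested in R 4.3.3 with edgeR 4.0.16 (filterByExpr on the 6 libraries compared, TMM, quasi-likelihood F test, Benjamini-Hochberg). The SE of a log2 fold change was taken as its size over the root of F. Total counts ranged from 80842635 to 90771289. The study's methods describe biological replicates, and p-values measure the spread between these cultures. On simulated counts the procedure was tested for recovery of known large changes in well-counted genes only. That test does not bear on genes with few counts, such as Ccl5, Cxcr3, Cxcl11 and Ccl12.

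Alternatives were DESeq2 size factors, quantile normalization, no filter, DESeq2 1.42.0 on the counts, limma 3.58.1 on log2 of the normalised values, halved counts, 1 fit of all 12 libraries, a replicate block, and each library left out in turn. The limit of 6 counts and the interferon and NF-kB lists with libraries left out were chosen after seeing the data. Genes were named if called in a comparison with D1 or with a mean of at least 100 scaled counts in a group. From the gene lists, examples were called genes with the largest log2 fold changes at that level; Irf1, Tlr2, Dpp4, Cmtm8, Mx2, Usp18, Gnai1, Gnai3, the neighbouring genes and the genes below the filter were chosen after their values were seen. Members and lists were chosen with earlier results of these data known. Promoters came from a RefSeq table of GRCr8 (40 of 54 genes). Named genes without an entry there are Ccl2, Ccl3, Ccl5, Ccl11 and Cxcr5. An item of the gene set is not reported here by name.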

Additional observations from a re-analysis of the deposited data

Results flagged for a closer look

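In the direct comparison of the knockdown libraries by edgeR, 8 of 19 tested genes passed the adjusted p, and 4 of them also passed the fold threshold. The log2 difference, RBPMS KD1 over MBNL KD, was -2.32 for Ccl7, -2.64 for Ccl11 and -3.46 for Ccl12, which were higher in MBNL KD, and 2.31 for Cxcl10, which was lower there. Leaving out each of the 6 libraries in turn gave -2.32 to -2.30 for Ccl7, -2.72 to -2.58 for Ccl11, -4.05 to -3.10 for Ccl12 and 2.18 to 2.44 for Cxcl10. Under limma on the normalised values 3 genes were called, with Ccl12 lost. The cause was not tested.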

How the results depend on the processing

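Across all genes tested, deviations of same-numbered libraries correlated between -0.0252 and 0.0248. This measure cannot decide whether smaller sets, such as the interferon list, moved together by replicate number. With the replicate block, 12, 2, 5 and 4 chemokine and receptor genes were called for P, RBPMS KD1 and MBNL KD against D1 and for RBPMS KD1 against MBNL KD, compared with 12, 2, 6 and 4 without it; Ccl5 and Cxcr3 lost their calls and Ackr4 gained one in RBPMS KD1. For RBPMS KD1, 1 gene was called under quantile normalization, no filter, DESeq2 on the counts, limma and 1 fit of 12 libraries, as Ccl5 was lost each time. Over all genes, limma on the normalised values, which have a minimum of 35, called 209 for RBPMS KD1, 784 for MBNL KD and 1050 between the knockdowns, compared with 745, 1643 and 1920. Leaving out single libraries gave 11 to 12, 1 to 3, 5 to 8 and 4 to 4 chemokine and receptor genes and 4757 to 4831, 739 to 783, 1657 to 1728 and 1945 to 2002 of all genes. RBPMS KD1 gave 1 such gene without D1 replicate 2 and 3 without D1 replicate 3 or RBPMS KD1 replicate 3.

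Among all called genes, the share that was higher moved under quantile normalization from 59.4% to 45.8% in P, from 65.4% to 54.3% in RBPMS KD1 and from 59.6% to 50.6% in MBNL KD, and for chemokine and receptor genes in P from 50% to 30%. Log2 fold changes that turned sign were small and not called. Under quantile normalization they were -0.30 for Cxcl17 and -0.04 for Cxcr3 in P, and -0.15 for Cxcl17, -0.03 for Ccl3 and 0.03 for Ackr3 in MBNL KD. Under limma they were -0.22 for Cxcl17 in P, and -0.10 for Cxcl17, -0.02 for Ccl3 and 0.03 for Ackr3 in MBNL KD. With single libraries left out, they ranged from -0.08 to 0.31 for Cxcr5 in RBPMS KD1, and in MBNL KD from -0.04 to 0.15 for Cxcl17, -0.01 to 0.66 for Ccl3, -0.17 to 0.10 for Cxcr5 and -0.10 to 0.01 for Ackr3. The fitted log2 fold change of Ccl12 in MBNL KD was 7.74 without D1 replicate 1, where D1 has no count, and that of Cxcl11 in P was 3.66. Limma, whose values shrink changes of low genes, lost Ccl3, Cxcl1, Cxcl11 and Cxcr5 in P (-0.61, 0.72, 0.27 and 0.41). It lost Ccl12 and Cxcr3 in MBNL KD (0.79 and 0.25). Halved counts lost Ccl3 and Cxcl11 to the filter in P, and they lost Cxcr3 in MBNL KD. In RBPMS KD1 halved counts lost Ccl5 and gained Ackr4. With the replicate libraries left out in turn, the calls of the NF-kB list changed by at most 1 gene: Lif was gained in P without D1 replicate 1 and Il1rn lost in RBPMS KD1 without D1 replicate 3. In the interferon list, Rsad2 was gained in P without D1 replicate 1, Irf1 (lower) in MBNL KD without D1 replicate 1, and Usp18 (higher) in MBNL KD without D1 replicate 1, MBNL KD replicate 2 or MBNL KD replicate 3. With a limit of 3 counts in place of 3 fragments, the bounds in P are 15.1-fold for Ccl3, 14.5-fold for Ccl20, 6.56-fold for Cxcl2 and 4.83-fold for Ccl19. Other causes were not tested.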
